A study of Mus musculus with 6 samples.

Results

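A set of 10 genes that handle iron or bind metals in the liver were followed in knockout and wild-type mice on a high-fat diet. They encode the hormone hepcidin and its paralog (Hamp, Hamp2), the transferrin receptors (Tfr2, Tfrc), transferrin (Trf), the ferritin heavy and light chains (Fth1, Ftl1), the iron exporter ferroportin (Slc40a1) and the metallothioneins (Mt1, Mt2). They were chosen by symbol and are 10 of the 46095 rows of the deposited table. All 10 had a mean of at least 1 FPKM (fragments divided by gene length and by library depth) over the 6 libraries, the level required for testing. The group HFD-ARRB1-KO holds 3 libraries of C57BL/6 mice with both ARRB1 alleles knocked out, and HFD-WT holds 3 libraries of C57BL/6 wild-type mice. Both groups were fed the high-fat diet for 26 weeks, so no library comes from mice on another diet. ARRB1 is beta-arrestin 1, an adaptor protein that binds activated G protein-coupled receptors, and by its title the study concerns non-alcoholic steatohepatitis and the secreted protein GDF15. Libraries are called KO1 to KO3 and WT1 to WT3 after their titles, and lists of values follow these numbers. The genotype labels of KO2 and KO3 read ARRB2-/- and ARRB3-/-, whereas their titles and the text of the series name ARRB1, and the titles were followed here. The libraries are labelled as hepatocytes. The labels do not say whether the deletion covers every tissue, how the cells were isolated, how old the mice were or whether each library is 1 animal, so the p-values rest on the spread between libraries, which may be technical.

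Hepcidin is secreted by hepatocytes and lowers plasma iron by driving the degradation of ferroportin on iron-exporting cells. Its transcription rises with iron through BMP ligands and SMAD proteins, and with inflammation through interleukin 6 and STAT3. Iron inside the cell acts mainly after transcription: iron regulatory proteins bind hairpins called iron-responsive elements, which block translation of ferritin and ferroportin mRNAs when iron is scarce and stabilise the mRNA of transferrin receptor 1, encoded by Tfrc. Metallothioneins are small cysteine-rich proteins that hold zinc and copper, and the transcription factor MTF1 induces their genes through metal response elements. In mice, Hamp encodes the iron-regulating hepcidin, and its paralog Hamp2 is not known to control iron.

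The promoters of the paired genes are shown because the hepcidin pair differs inside a regulatory motif and because the metallothionein pair shares one. Each window runs from 250 bases before to 50 bases after the transcription start in RefSeq (GRCm38.p6), 5′ to 3′ along the gene. Of the 10 genes, 8 matched the promoter table, with 12 windows of 300 bases, and Trf and Slc40a1 did not. The first pair lies on the minus strand, Hamp at chr7:30943980-30944279 and Hamp2 at chr7:30924132-30924431. Capitals mark GGCGCC, the core of a BMP response element, and TTCNNNGAA, the core of a STAT site, both searched on both strands.
Hamp: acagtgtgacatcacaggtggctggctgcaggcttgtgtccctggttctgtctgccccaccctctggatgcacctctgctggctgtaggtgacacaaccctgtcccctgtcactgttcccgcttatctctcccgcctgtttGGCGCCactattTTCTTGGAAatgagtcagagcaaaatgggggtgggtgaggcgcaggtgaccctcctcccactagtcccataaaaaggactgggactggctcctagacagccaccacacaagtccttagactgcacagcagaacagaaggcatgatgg
Hamp2: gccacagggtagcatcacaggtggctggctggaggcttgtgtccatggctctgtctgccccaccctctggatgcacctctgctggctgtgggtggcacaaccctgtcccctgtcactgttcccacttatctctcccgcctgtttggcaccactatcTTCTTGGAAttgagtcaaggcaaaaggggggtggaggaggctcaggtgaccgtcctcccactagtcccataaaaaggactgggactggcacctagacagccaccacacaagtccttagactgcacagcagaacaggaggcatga
The windows were identical at 276 of 297 aligned bases (92.9%). Hamp carried GGCGCC from 109 bases before the start and TTCTTGGAA from 97 bases before it. Hamp2 carried the same TTCTTGGAA from 94 bases before its start and no GGCGCC. At the aligned place it has the substitution G145A, with positions counted from 1 at the 5′ end of the Hamp window and the Hamp base first, which falls on position 4 of the motif. GGCGCC occurred in 11.9% and TTCNNNGAA in 8.29% of all 32817 promoter windows of the table.

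The metallothionein windows lie on the plus strand, Mt1 at chr8:94178839-94179138 and Mt2 at chr8:94172368-94172667. Capitals mark the core of the metal response element, TGCACNC or TGCGCNC, on either strand.
Mt1: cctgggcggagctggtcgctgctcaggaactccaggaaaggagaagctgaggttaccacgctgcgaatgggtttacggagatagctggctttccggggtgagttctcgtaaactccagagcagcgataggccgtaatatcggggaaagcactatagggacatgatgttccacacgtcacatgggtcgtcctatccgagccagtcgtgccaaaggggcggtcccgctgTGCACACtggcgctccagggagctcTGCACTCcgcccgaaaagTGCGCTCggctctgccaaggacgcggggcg
Mt2: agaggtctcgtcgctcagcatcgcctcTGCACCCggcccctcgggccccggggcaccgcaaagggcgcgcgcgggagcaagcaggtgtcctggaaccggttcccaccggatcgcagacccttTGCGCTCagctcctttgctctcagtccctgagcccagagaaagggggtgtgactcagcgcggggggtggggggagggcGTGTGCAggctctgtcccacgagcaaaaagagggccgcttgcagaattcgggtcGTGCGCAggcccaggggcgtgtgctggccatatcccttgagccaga
Mt1 held 3 cores on the plus strand, from 23 bases before and from 2 and 20 bases after the start. Mt2 held 4, of which those 223 and 128 bases before the start read along the plus strand, and those 50 bases before and 4 bases after it along the minus strand. At least 1 core was present in 25.7% of all windows and 3 or more in 1.97%. Of the other members with a window, only Tfrc held any of these motifs. In 1 of its windows it had 1 GGCGCC and 2 metal response element cores. Over the whole window the promoters were less alike than those of the hepcidin pair, with 147 of 264 aligned bases identical (55.7%). No marked match overlapped another, and a match of letters does not show that a factor binds.

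Iron-responsive-element-like sites are shown because they are what the ferritins, ferroportin and Tfrc share. The search took the loop CAGTGN, a bulged C and 5 paired stem bases on each side, G-T pairs included, within annotated UTRs (GENCODE vM21, GRCm38). Each site is printed as 27 bases, of which the outer 5 on each side were not part of the search. Capitals mark the loop.
Fth1, 5′ UTR, chr19:9982733-9982759, plus strand: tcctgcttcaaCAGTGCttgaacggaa
Ftl1, 5′ UTR, chr7:45459780-45459806, minus strand: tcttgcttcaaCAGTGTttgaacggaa
Slc40a1, 5′ UTR, chr1:45925466-45925492, minus strand: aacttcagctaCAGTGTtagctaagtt
Tfrc, 3′ UTR, chr16:32631220-32631246, plus strand: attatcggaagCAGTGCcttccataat
Tfrc, 3′ UTR, chr16:32631711-32631737, plus strand: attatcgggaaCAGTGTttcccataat
Tfrc had 4 such sites in its 3′ UTR, of which the first and the last are printed, and none in its 5′ UTR. A site of this form was found in the 5′ UTR of 31 of 20580 genes (0.151%) and in the 3′ UTR of 129 of 20962 genes (0.615%). The other 6 members had none, which says only that these letters were not found in their annotated UTRs.

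Reads were recovered from the steps of the FPKM values for genes above 0 in at least 4 libraries. Over these genes they summed to 13354411, 33873322 and 28137583 in KO1 to KO3 and 31992348, 26947953 and 29107022 in WT1 to WT3. Arrb1 was at 0.918, 1.05 and 1.16 FPKM in KO1 to KO3 and at 3.86, 22.7 and 16.9 FPKM in WT1 to WT3, so WT1 had much less Arrb1 than the other wild-type libraries. It was called lower, with a log2 fold change of -2.64 ± 0.514 and a limma adjusted p of 0.0275. On the same chromosome as Arrb1 lie Hamp and Hamp2, 68.6 Mb away, and Ftl1, 54.1 Mb away. WT1 was also the lowest of its group for Hamp, Mt1 and Mt2, and the values of these genes and of their ratios are given with and without it. The 10 hepatocyte marker genes, led by Alb, summed to 46398 to 54640 FPKM in knockout and 49928 to 60109 FPKM in wild-type libraries. Without Alb they summed to 17731 to 19395 FPKM in knockout and 21932 to 26630 FPKM in wild-type libraries. Such sums cannot tell isolated hepatocytes from whole liver. In 6 of the 10 every knockout library lay below every wild-type library, beside 7.81% of all genes tested. Of the 10, 2 were called lower (Cps1, Tat), beside 1.60%, and the list median log2 fold change was -0.24, beside 0.07 for all genes tested. Markers of other liver cells were present too, and the called ones are named here after their values were seen. The 11 Kupffer cell markers, led by Cd5l, summed to 300.2 to 356.3 FPKM in knockout and 288.4 to 315.3 FPKM in wild-type libraries, and the 8 sinusoidal endothelial markers, led by Fcgr2b, to 127.8 to 147.8 FPKM in knockout and 115.1 to 134.6 FPKM in wild-type libraries. Of the Kupffer cell markers 3 lay above and 3 below wild type without overlap, beside 23.4% and 7.81% of all genes tested. Of these markers 1 was called, lower (Vsig4), beside 1.60%. That call, at a limma adjusted p of 0.0436, was kept in 1 of the 6 fits that leave out a library, that without WT3. Of the endothelial markers 5 of 8 lay above without overlap, beside 23.4% of all genes tested, and 2 were called higher, beside 5.30%. The 2 called were Lyve1 (2.74-fold, limma adjusted p 0.00176) and Pecam1 (1.46-fold, 0.0487, kept in 1 of the 6 fits that leave out a library, that without KO1). The 8 stellate cell markers, led by Dcn, summed to 177.9 to 235.0 FPKM in knockout and 177.9 to 204.1 FPKM in wild-type libraries, and the 6 cholangiocyte markers, led by Spp1, to 36.86 to 97.93 FPKM in knockout and 29.98 to 60.63 FPKM in wild-type libraries. The 10 erythroid genes, led by Alas2 and with Ermap at 0 in all libraries, summed to 68.86 to 171.0 FPKM in knockout and 79.51 to 127.0 FPKM in wild-type libraries. Of the 6 tested, 2 were called higher (Hbb-b1, Hbb-b2), beside 5.30% of all genes tested. Both reached the mean of 1 FPKM only through the knockout libraries, and with no filter their limma adjusted p was 0.0558 and 0.129. Hbb-b1 was at 11.1, 40.4 and 8.22 FPKM in KO1 to KO3 and at 0.0476, 0.284 and 0.21 FPKM in WT1 to WT3. Hbb-b2 was at 0 in all wild-type libraries. The beta-globin copy Hbb-bs was at 1.69, 20.6 and 2.25 FPKM in knockout and 11.6, 33.4 and 16.2 FPKM in wild-type libraries. How reads were split between these copies is not given, and whether the calls reflect erythroid cells was not tested. Hbb-bs, Hbb-bt, Hba-a1 and Alas2 overlapped and were not called, with log2 fold changes of -1.77, -1.25, -0.56 and -0.26. The list median was -0.41.

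By level per gene length, averaged over the 6 libraries, the order was Trf at 8165 FPKM, Ftl1 at 2181, Fth1 at 1036, Hamp at 170, Tfr2 at 139, Slc40a1 at 40.3, Mt1 at 18.0, Mt2 at 11.1, Tfrc at 7.95 and Hamp2 at 6.21 FPKM. Trf, Ftl1 and Fth1 stood apart, each with its lowest library above the highest library of the next gene. Hamp and Tfr2 did not differ beyond their spread, with Hamp above Tfr2 in 3 of 6 libraries. Slc40a1 lay apart from its neighbours on both sides. Mt1 exceeded Mt2 in 6 of 6 libraries although their ranges overlapped, Mt2 exceeded Tfrc in 4 of 6, and Tfrc exceeded Hamp2 in 4 of 6. The transcript of the hepatocyte receptor TFR2 was thus more abundant than that of TFR1 in every library.

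**Figure D1:**
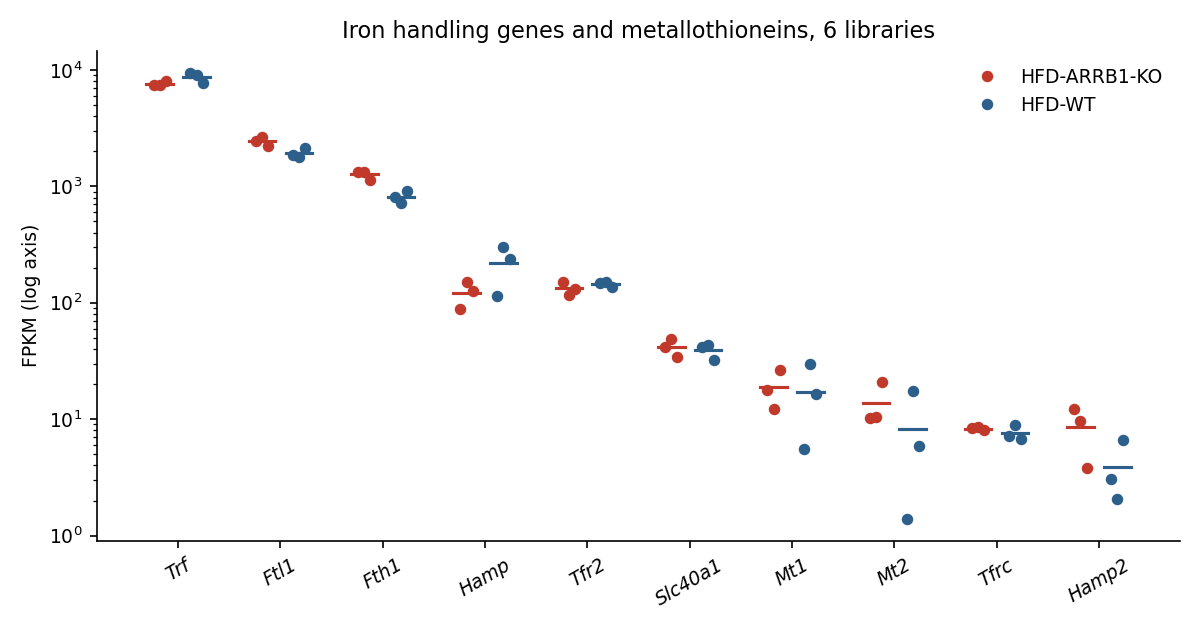
FPKM of each gene in each library on a log axis, with knockout libraries left of wild-type libraries and a bar at each group mean. Fth1 and Ftl1 are the only genes whose groups do not overlap, and Hamp2, Mt1 and Mt2 spread widely within groups.

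Between genotypes, 1 of the 10 genes was called, Fth1, which was higher in knockout. None was called lower. In the limma fit on log2(FPKM + 1) with Benjamini-Hochberg adjustment over 10633 genes, 5.30% of all genes tested were called higher and 1.60% lower at an adjusted p under 0.05 (6.90% in either direction), so 1 of 10 is near the background. At an unadjusted p under 0.05, 2 members were higher (Fth1, Ftl1) and 0 lower, beside 19.1% and 6.19% of all genes, and in voom, a limma fit on the recovered reads, 1 was called higher (Fth1) and 0 lower, beside 7.50% and 1.86%. In 2 of the 10 (Fth1, Ftl1) every knockout library exceeded every wild-type library, beside 23.4% of all genes, and in 0 every knockout library lay below, beside 7.81%. The median log2 fold change of the 10 genes was 0.22, and that of all genes tested was 0.07. In bulk RNA, a change in the number of cells of a type and a change in RNA per cell cannot be told apart. The hepatocyte and endothelial markers whose groups did not overlap were given with the libraries, and their part in the values of the 10 genes was not tested.

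**Figure D2:**
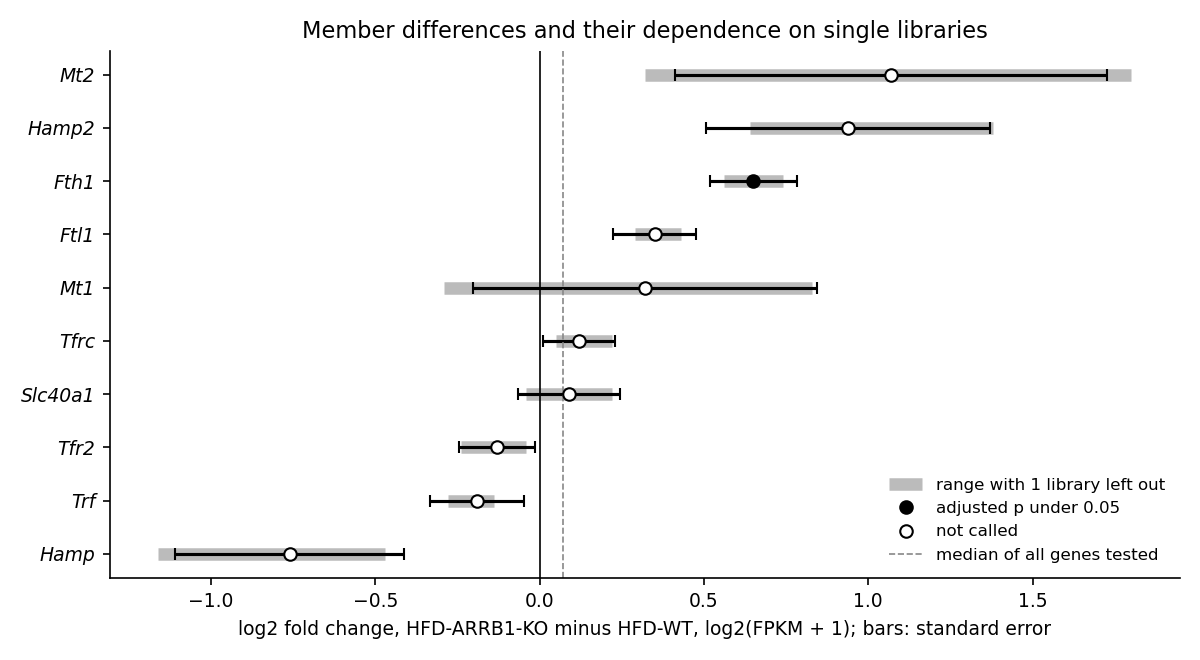
Log2 fold change (knockout minus wild type, log2(FPKM + 1) scale) of the 10 genes with bars for standard errors, grey bands for the range with 1 library left out, and a dashed line at the median of all genes tested. Fth1 lies at 0.65 with the adjusted p of 0.032, and the values of Hamp, Hamp2, Mt1 and Mt2 shift most when 1 library is left out.

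The hepcidin genes, 17687 bases apart on chromosome 7, lay on opposite sides of 0, and neither was called. Hamp (GRCm38 chr7:30942368-30944032, minus strand) was at 88.8, 150 and 126 FPKM in KO1 to KO3, against 114, 299 and 239 FPKM in WT1 to WT3. The knockout libraries lay below WT2 and WT3, but 2 of them lay above WT1. Hamp averaged 122 ± 30.8 FPKM in knockout and 218 ± 94.3 FPKM in wild type (SD, n = 3 each), with a log2 fold change of -0.76 ± 0.348 (SE) and a limma adjusted p of 0.221. Without WT1 the log2 fold change was -1.16 with a limma adjusted p of 0.0472, past the threshold. Leaving out any other library gave -0.92 to -0.47 with adjusted p of 0.28 to 0.486.

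Hamp2 (chr7:30922372-30924681, minus strand) was at 12.2, 9.60 and 3.77 FPKM in KO1 to KO3, against 3.09, 2.05 and 6.57 FPKM in WT1 to WT3. Here KO1 and KO2 were high and KO3 lay among the wild-type libraries. The means were 8.51 ± 4.31 FPKM in knockout and 3.90 ± 2.37 FPKM in wild type (SD, n = 3 each), a log2 fold change of 0.94 ± 0.432 with a limma adjusted p of 0.222. The counts were low, between 25 and 147 reads, yet the spread within groups exceeded counting error: the exact 95% Poisson interval was 9.56 to 15.3 FPKM in KO1 and 2.78 to 4.99 FPKM in KO3. Such intervals cover counting error only. Because the mRNAs are closely similar, and how reads that match both were counted is not given in the sources used here, the split between Hamp and Hamp2 is uncertain. The annotation also places the lincRNA Gm44662 over both genes, and whether the counting used strand is not given in the sources used here.

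The balance within the hepcidin pair separated the groups where neither gene did, but by a gap within counting error. Hamp2 stood at 13.7, 6.40 and 2.99% of the Hamp level in KO1 to KO3 and at 2.70, 0.685 and 2.75% in WT1 to WT3. Every knockout library lay above every wild-type library, though KO3 did so narrowly. The mean log2 ratio was -3.97 ± 1.098 in knockout and -5.86 ± 1.151 in wild type (SD, n = 3 each), a difference of 1.90 or 3.72-fold. An exact permutation test of the ratio, two-sided, gave 0.1, which is the lowest p that 3 against 3 libraries allow, so no ratio here can reach 0.05. The difference was 2.22 without WT1, and with any single library left out it was between 1.23 (without WT2) and 2.45 (without KO3).

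**Figure D3:**
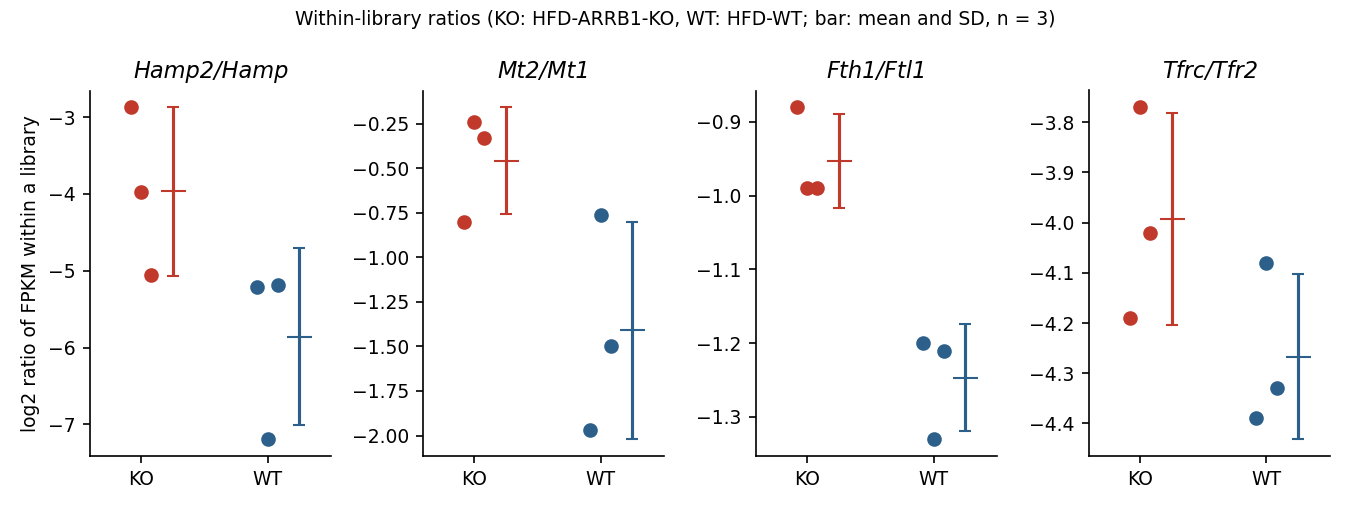
Log2 ratio of the levels of paired genes within each library, knockout left of wild type, with bars for the mean and SD of each group (n = 3). Hamp2 to Hamp and Fth1 to Ftl1 are higher in every knockout library than in any wild-type library, while Mt2 to Mt1 and Tfrc to Tfr2 overlap.

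Genes that control hepcidin were examined as a list of 31, of which 28 were tested. In it, 1 was called higher (Id3) and 1 lower (Egfr), beside 5.30% and 1.60% of all genes, with a list median log2 fold change of 0.10 beside 0.07 for all genes. Id3, an inhibitor of basic helix-loop-helix factors and a target of BMP signalling, was at 47.5, 57.5 and 37.4 FPKM in KO1 to KO3 and at 24.0, 21.4 and 24.2 FPKM in WT1 to WT3. Its log2 fold change was 0.98 ± 0.151 with a limma adjusted p of 0.0148, which became 0.0606 without WT2. Egfr, the receptor of epidermal growth factor, was at 48.4, 45.7 and 45.0 FPKM in KO1 to KO3 and at 69.9, 84.6 and 69.6 FPKM in WT1 to WT3, a log2 fold change of -0.67 ± 0.10 with a limma adjusted p of 0.0133, which became 0.0581 without KO2. Neither gene overlapped between the groups. Over the 28 tested, 5 lay above and 3 below wild type without overlap, beside 23.4% and 7.81% of all genes tested.

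The other BMP targets of the list did not pass the limma fit. Id2 was closest, at 81.3, 117 and 110 FPKM in KO1 to KO3 and at 72.2, 63.2 and 74.7 FPKM in WT1 to WT3, with groups that did not overlap. Its log2 fold change was 0.53 ± 0.146 with a limma adjusted p of 0.0715, while voom gave 0.0453, which is past the threshold. Smad6 and Atoh8 overlapped between the groups, at 0.24 (limma adjusted p 0.423) and 0.21 (0.624). Id1 was at 3.76, 10.5 and 6.96 FPKM in KO1 to KO3 and at 3.05, 3.79 and 3.69 FPKM in WT1 to WT3, and Smad7, an inhibitory SMAD, at 2.82, 3.83 and 2.43 FPKM in the knockout and 2.44, 1.90 and 1.48 FPKM in the wild-type libraries. Their log2 fold changes were 0.75 ± 0.282 and 0.45 ± 0.17, each with a limma adjusted p of 0.15 and groups that overlapped at 1 library. Of the interleukin 6 genes, Il6st had groups that did not overlap and a log2 fold change of 0.36 ± 0.094. Its limma adjusted p was 0.0634, and voom gave 0.0465. Il6ra, Jak2, Stat3 and Socs3 overlapped, at -0.04, 0.08, 0.09 and 0.89, and did not pass. Fgl1 was lower without overlap, at -0.79 (limma adjusted p 0.128), and did not pass. Nor did Bmp6, Tmprss6 and Hfe pass. These 3, like Id2, Smad6, Atoh8, Fgl1 and the interleukin 6 genes, were chosen after their values were seen. Bmp6, a ligand that signals iron to hepcidin, was at 1.92, 2.10 and 1.83 FPKM in knockout and 1.95, 1.72 and 1.49 FPKM in wild-type libraries. Tmprss6, a protease that restrains hepcidin, was at 188, 181 and 167 FPKM in knockout and 152, 152 and 168 FPKM in wild-type libraries. Hfe, the gene of classical hemochromatosis, was at 22.1, 24.8 and 22.6 FPKM in knockout and 21.7, 20.6 and 18.8 FPKM in wild-type libraries, and of the 3 it alone had groups that did not overlap, with a log2 fold change of 0.18 and a limma adjusted p of 0.262.

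**Figure D4:**
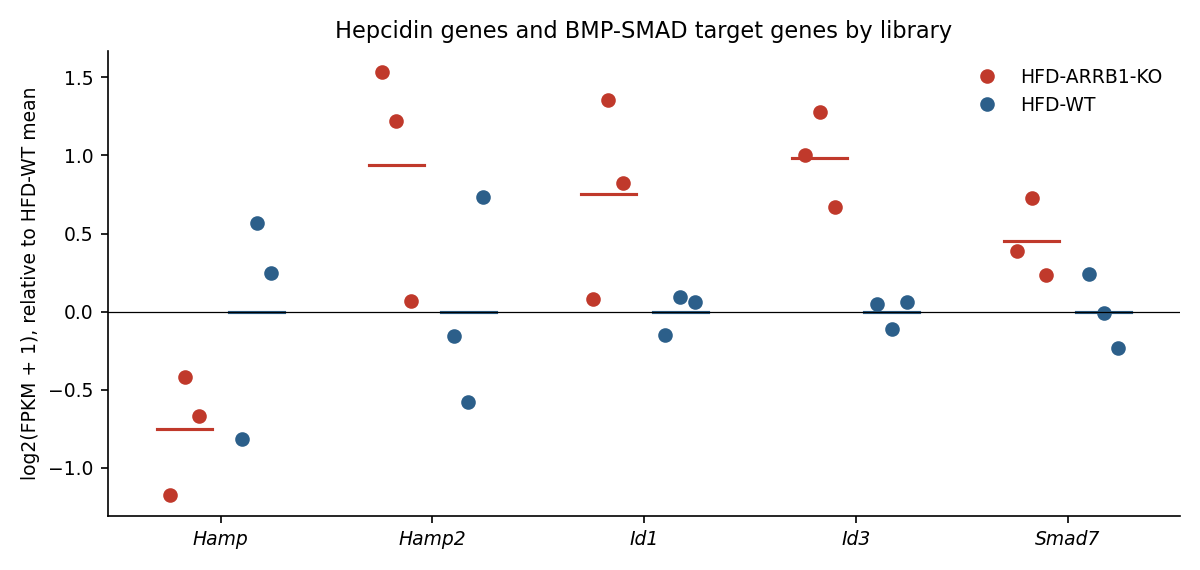
log2(FPKM + 1) of the hepcidin genes and of 3 target genes of BMP signalling in each library, relative to the wild-type mean of each gene, with knockout left of wild type and bars at the group means. Id3 is higher in every knockout library, while Hamp overlaps through WT1 at 114 FPKM.

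Transferrin and its receptors did not pass the test. Trf, the plasma iron carrier (chr9:103204001-103230444, minus strand), was at 7363, 7399 and 8067 FPKM in KO1 to KO3 and at 9379, 9026 and 7759 FPKM in WT1 to WT3. WT3 lay among the knockout libraries. Trf averaged 7609 ± 397 FPKM in knockout and 8721 ± 851 FPKM in wild type (SD, n = 3 each), a log2 fold change of -0.19 ± 0.142 with a limma adjusted p of 0.433. Its sign depended on the scaling and was positive, at 0.20, after quantile normalization. Gm20425 is annotated over Trf.

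Tfr2, the sensor of iron-loaded transferrin on hepatocytes (chr5:137569840-137587481, plus strand), was at 152, 116 and 130 FPKM in KO1 to KO3 and at 149, 151 and 136 FPKM in WT1 to WT3. The knockout group spanned the wild-type group, and the log2 fold change was -0.13 ± 0.116 with a limma adjusted p of 0.508. Tfrc, the receptor that takes up transferrin-bound iron (chr16:32608920-32632794, plus strand), was at 8.36, 8.52 and 8.01 FPKM in KO1 to KO3 and at 7.14, 8.91 and 6.77 FPKM in WT1 to WT3. Relative to its mean it varied least of the 10 genes among knockout libraries, at 8.30 ± 0.262 FPKM, against 7.61 ± 1.14 FPKM in wild type (SD, n = 3 each). Its log2 fold change was 0.12 ± 0.109 with a limma adjusted p of 0.536. Tfrc stood at 5.48, 7.32 and 6.17% of the Tfr2 level in knockout and at 4.78, 5.92 and 4.99% in wild-type libraries, a difference in log2 ratio of 0.27 with overlapping groups and an exact permutation p of 0.2.

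Both ferritin genes were higher in every knockout library, and Fth1 passed the test. Fth1, the heavy chain that oxidises iron for storage (chr19:9980598-9985098, plus strand), was at 1337, 1333 and 1122 FPKM in KO1 to KO3 and at 801, 711 and 912 FPKM in WT1 to WT3. The lowest knockout library exceeded the highest wild-type library. Fth1 averaged 1264 ± 123 FPKM in knockout and 808 ± 101 FPKM in wild type (SD, n = 3 each), 1.56-fold. The log2 fold change was 0.65 ± 0.132 with a limma adjusted p of 0.032, and voom on the recovered reads, of which Fth1 had 28083 to 70590 per library, gave 0.0162. The fold change was between 0.56 and 0.74 with any library left out, but the call was not kept in most of these fits: the limma adjusted p was 0.0766 without KO1, 0.117 without KO2, 0.0934 without WT1 and 0.105 without WT2. It was also lost under median-of-ratios scaling, where it was 0.0526.

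Ftl1, the light chain that supports the iron core (chr7:45457944-45459884, minus strand), was at 2452, 2650 and 2235 FPKM in KO1 to KO3 and at 1845, 1788 and 2113 FPKM in WT1 to WT3. The groups did not overlap, with KO3 and WT3 the closest. Ftl1 averaged 2446 ± 208 FPKM in knockout and 1915 ± 174 FPKM in wild type (SD, n = 3 each), 1.28-fold, with a log2 fold change of 0.35 ± 0.125, a limma adjusted p of 0.132 and an unadjusted p of 0.0234, so it was not called. Gm22133 and Gm10252 are annotated over Ftl1. The processed copy Ftl1-ps1 was at 40.9 to 47.2 FPKM in knockout and 32.2 to 39.7 FPKM in wild-type libraries, and reads could be split between it and Ftl1.

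The level of the heavy chain relative to the light chain also separated the groups. Fth1 stood at 54.5, 50.3 and 50.2% of Ftl1 in KO1 to KO3 and at 43.4, 39.8 and 43.2% in WT1 to WT3, and the groups did not overlap. The difference in mean log2 ratio was 0.30 (1.23-fold), between 0.25 and 0.32 with any library left out, with an exact permutation p of 0.1, the smallest possible. The summed ferritin level was 3789, 3983 and 3357 FPKM in knockout and 2646, 2499 and 3026 FPKM in wild-type libraries, 1.36-fold higher in knockout on the means, again with an exact permutation p of 0.1. Macrophages also hold much ferritin. The 7 markers of monocyte-derived macrophages, led by Spp1, summed to 53.09 to 141.4 FPKM in knockout and 34.79 to 67.38 FPKM in wild-type libraries. Spp1, which is also on the cholangiocyte list, carried most of that sum and overlapped. Without it the markers summed to 23.7 to 52.4 FPKM in knockout and 11.6 to 19.9 FPKM in wild-type libraries. In 5 of the 7 (Ccr2, Ly6c2, Gpnmb, Cd9, Itgax) every knockout library exceeded every wild-type library. Ly6c2 and Itgax averaged under 1 FPKM and were not tested. Of the 5 tested markers 3 were so separated, beside 23.4% of all genes tested, and the median log2 fold change of the 5 was 0.80. Gpnmb, at 2.42, 9.66 and 3.4 FPKM in KO1 to KO3 and at 0.126, 0.160 and 0.174 FPKM in WT1 to WT3, was the 1 called (limma adjusted p 0.0177, and 0.0709 without WT2), beside 5.30% of all genes. Gpnmb and Ccr2 reached the mean of 1 FPKM only through the knockout libraries. The part of these cells in the ferritin result was not tested.

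Ferroportin did not pass the test. Slc40a1 (chr1:45908068-45926523, minus strand), the only known iron exporter of mammalian cells, was at 41.9, 48.4 and 34.5 FPKM in KO1 to KO3 and at 41.4, 43.3 and 32.0 FPKM in WT1 to WT3. The groups overlapped, with replicate 3 the lowest in each. The log2 fold change was 0.09 ± 0.156 with a limma adjusted p of 0.752, and its sign was not stable, at -0.004 under median-of-ratios scaling, -0.02 without KO2 and -0.04 without WT3.

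In the list of other genes of iron uptake, storage and export, 20 of 25 were tested and 2 were called, both higher, beside 5.30% of all genes. The list median was 0.11 beside 0.07 for all genes. Slc11a2, the iron transporter DMT1, was at 17.1, 14.5 and 12.8 FPKM in KO1 to KO3 and at 9.77, 10.3 and 10.1 FPKM in WT1 to WT3, a log2 fold change of 0.50 ± 0.112 with a limma adjusted p of 0.0403. Steap4, a metalloreductase, was at 120, 103 and 96.0 FPKM in knockout and 71.7, 79.3 and 81.0 FPKM in wild-type libraries, at 0.45 ± 0.107 with a limma adjusted p of 0.0493. In both genes the groups did not overlap, but both calls were fragile. The call of Slc11a2 held only without KO3 (adjusted p 0.0384), with 0.0628 to 0.121 without any other single library, and that of Steap4 was lost without each of the 6. Aco1, which encodes iron regulatory protein 1, was at 65.8, 67.7 and 65.7 FPKM in knockout and 70.5, 64.2 and 65.2 FPKM in wild-type libraries, and was not called. Ireb2, which encodes the other iron regulatory protein, had a log2 fold change of -0.08 and a limma adjusted p of 0.648.

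Of 22 genes of heme metabolism and hemoglobin salvage, 18 were tested and 1 was called, higher, beside 5.30% of all genes, with a median of 0.02. Slc48a1, a heme transporter of the endosome and lysosome, was at 24.3, 30.4 and 24.0 FPKM in KO1 to KO3 and at 18.4, 17.7 and 17.5 FPKM in WT1 to WT3. It was higher in every knockout library, at 0.52 ± 0.106 with a limma adjusted p of 0.032, which was 0.0475 without KO1 and 0.0527 to 0.104 without any other single library. Hmox1, heme oxygenase 1, which frees iron from heme, was at 20.7, 28.0 and 18.8 FPKM in knockout and 23.0, 26.4 and 18.2 FPKM in wild-type libraries, with a log2 fold change of -0.01 and a limma adjusted p of 0.985.

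The metallothioneins, 5514 bases apart on chromosome 8, varied more within the wild-type group than between genotypes. Mt1 (chr8:94179082-94180327, plus strand) was at 17.8, 12.3 and 26.2 FPKM in KO1 to KO3 and at 5.49, 29.7 and 16.6 FPKM in WT1 to WT3. The wild-type libraries held both the lowest and the highest value, 5.41-fold apart. Mt1 averaged 18.8 ± 6.96 FPKM in knockout and 17.3 ± 12.1 FPKM in wild type (SD, n = 3 each), a log2 fold change of 0.32 ± 0.523 with a limma adjusted p of 0.741. Without WT1 it was -0.29, with a limma adjusted p of 0.664.

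Mt2 (chr8:94172664-94173568, plus strand) was at 10.2, 10.5 and 20.8 FPKM in KO1 to KO3 and at 1.40, 17.5 and 5.88 FPKM in WT1 to WT3. All knockout libraries exceeded WT1 and WT3, while WT2 lay between the knockout values, and the wild-type libraries spread 12.5-fold. Mt2 averaged 13.8 ± 6.06 FPKM in knockout and 8.27 ± 8.32 FPKM in wild type (SD, n = 3 each), a log2 fold change of 1.07 ± 0.657 with a limma adjusted p of 0.35, and 0.32 without WT1. WT1 held 26 reads of Mt2, with an exact 95% Poisson interval of 0.917 to 2.06 FPKM, so its distance from the other wild-type libraries exceeded counting error. The antisense gene Gm45774 is annotated over Mt2, and its reads could not be told apart. The Mt2 level was 57.4, 84.8 and 79.7% of that of Mt1 in knockout and 25.6, 59.0 and 35.4% in wild-type libraries, a difference in log2 ratio of 0.95 with an exact permutation p of 0.2 and groups that overlapped at WT2. Without WT1 that difference was 0.67, with an exact permutation p of 0.3. Mt3 and Mt4 were listed at 0 in all libraries.

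Of 29 genes of zinc and copper handling, 24 were tested and 3 were called, all higher, beside 5.30% of all genes. They were 3 of the 8 tested zinc transporters of the Slc39 (ZIP) family in the list, and the other 5 were not called, nor were Slc39a8 and Slc39a14 of the iron list. This family was set apart after the values were seen. The list median was 0.07, the same as for all genes. Slc39a5 was at 3.24, 2.24 and 2.34 FPKM in KO1 to KO3 and at 0.532, 0.195 and 0.660 FPKM in WT1 to WT3, a log2 fold change of 1.30 ± 0.17 with a limma adjusted p of 0.0081. It reached the mean of 1 FPKM only through the knockout libraries, so it could be tested only because it was high there, and with no filter the limma adjusted p was 0.0514. Slc39a4, which takes up dietary zinc in the intestine, was at 16.7, 27 and 25 FPKM in knockout and 10.3, 8.93 and 15.3 FPKM in wild-type libraries, at 0.94 ± 0.225 with a limma adjusted p of 0.0493. Slc39a9 was at 20.2, 23.5 and 21.4 FPKM in knockout and 17.1, 15.1 and 15.7 FPKM in wild-type libraries, at 0.42 ± 0.092 with a limma adjusted p of 0.0379. Groups overlapped in none of the 3. The call of Slc39a4 held only without KO1 (0.0328) or WT3 (0.0351) and was otherwise at 0.126 to 0.162, and that of Slc39a9 held only without KO1 (0.0487) and was otherwise at 0.0711 to 0.129. Mtf1, the metal-sensing factor, was at 3.68, 3.63 and 4.09 FPKM in knockout and 3.95, 3.89 and 3.92 FPKM in wild-type libraries, and neither it nor the zinc exporter Slc30a1, an MTF1 target (-0.17, limma adjusted p 0.386), was called.

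Metallothionein genes also respond to glucocorticoids, and of 12 such genes 10 were tested, with a median of -0.07. Tat, tyrosine aminotransferase, was the 1 called and was lower, beside 1.60% of all genes, at 223, 273 and 462 FPKM in KO1 to KO3 and at 609, 1060 and 619 FPKM in WT1 to WT3. Its log2 fold change was -1.27 ± 0.305 with a limma adjusted p of 0.0495, and the call held only without KO3 (0.0286), with 0.0731 to 0.161 without any other single library. Over all 5 lists, 100 of 119 genes were tested, and 7 were called higher and 2 lower, which is near the 5.30% and 1.60% of all genes.

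**Figure D5:**
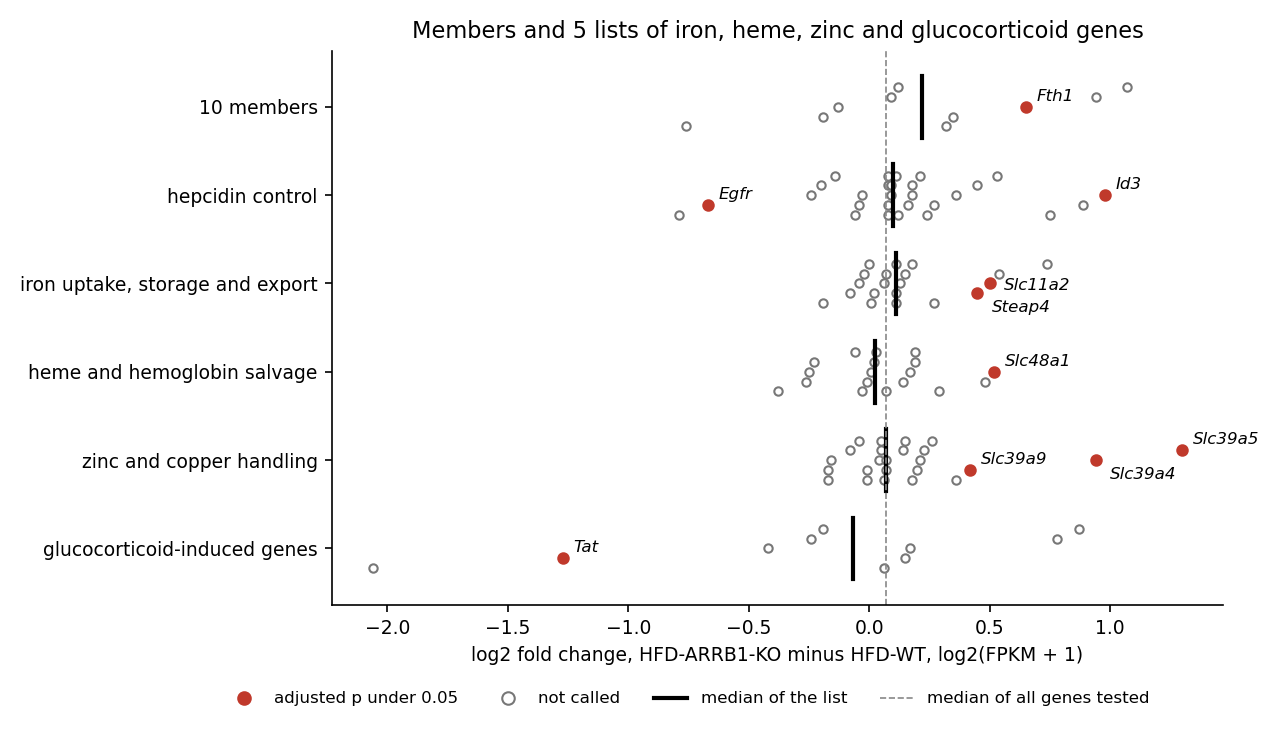
Log2 fold change (knockout minus wild type, log2(FPKM + 1) scale) of the 10 genes and of the tested genes of the 5 lists, with called genes filled and named and a bar at each median. The medians of the 5 lists lie between -0.07 and 0.11 beside 0.07 for all genes tested.

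Genes with the most similar profiles were found by the root mean square difference of log2(FPKM + 1), centred on the mean of each gene, over the 6 libraries and 10632 other genes. Nearest to Hamp were Got1 (0.234), Mup20 (0.277) and Ifrd1 (0.290), while Hamp itself varied by 0.605. Nearest to Mt1 were Ddit4 (0.371), Fam134b (0.410) and Csrnp1 (0.429), with Mt2 at rank 6 (0.464) and a spread of 0.737 of Mt1 itself. The nearest were Ddx58 (0.0235), Gdap2 (0.0265) and Cyld (0.0346) for Tfrc, which varied by 0.125, and Gm9770 (0.0496), Dse (0.062) and Nup35 (0.0651) for Slc40a1, which varied by 0.197. These distances describe 6 libraries and were not tested.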

How the data were processed

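RNA-seq was done on 6 libraries. RNA was extracted with Trizol, and 1 ug of it entered each Illumina TruSeq library, per the labels' protocols. The values are FPKM as deposited by the authors, 1 per gene and library. Bowtie 0.12.2 and HISAT2 and the builds mm8 and mm10 were named in the submitters' processing notes, without their roles. The annotation, strand setting and treatment of multiply matching reads are not given in the sources used here, and each affects overlapping or near-identical genes. Positions come from GENCODE vM21 (GRCm38, which corresponds to mm10) and are not part of the deposited values.

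Genotypes were compared on the log2(FPKM + 1) scale by limma 3.58.1 (R 4.3.3), using lmFit and two-sided eBayes tests with a mean-variance trend and no covariate. Genes averaging under 1 FPKM were dropped, which left 10633, and the Benjamini-Hochberg adjustment ran over them, with calls at 0.05. The sign of a fold change is that of knockout minus wild type, and low genes are understated on this scale. FPKM steps gave whole reads for 17549 of 17549 genes above 0 in at least 4 libraries, with a tolerance of 0.001 reads plus a relative 5e-08, capped at 0.05 reads. These reads were used for voom, for depth and for Poisson intervals. Voom called 797 genes higher and 198 lower. The fit and the read recovery were tested on simulated data. Ratios within a library were compared by exact two-sided permutation. Other scripts used Python 3.11.15.

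The 10 genes, the lists and the tests were chosen with earlier results of these data known. The genes named are the 10, Arrb1, every called gene of a list up to 4 with up to 2 textbook regulators, the 3 nearest profiles of Hamp, Mt1, Tfrc and Slc40a1, and in each marker list the highest gene and those at 0. The choice of the following genes was made with their values in view: Id2, Smad6, Atoh8, Bmp6, Tmprss6 and Hfe, the markers given as called or without overlap, Hba-a1, Hbb-bs and Hbb-bt, Ftl1-ps1, annotated genes over members, Slc39a8 and Slc39a14, Lcn2, Hp and Hpx. So was that of Il6st, Il6ra, Jak2, Stat3, Socs3 and Fgl1, and of the Slc39 genes as a family. The alternatives tried were no filter or one at 5 FPKM, a pseudocount of 0.1, TPM, median-of-ratios and quantile scaling, eBayes without trend or robust, array weights, voom, the replicate number as a block and each library left out.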

Additional observations from a re-analysis of the deposited data

How the results depend on the processing

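Of 170 values of the 10 genes under the alternatives, 157 kept their direction and their side of the threshold, 7 (all of Fth1) lost the call, 1 gained it (Hamp without WT1) and 5 turned sign. Those 5 were Trf under quantile normalization (0.20), Slc40a1 under median-of-ratios scaling (-0.004), without KO2 (-0.02) and without WT3 (-0.04; 0.22 without KO3, the highest), and Mt1 without WT1 (-0.29; 0.83 without WT2, the highest). The cause was not tested. Fth1 also lost its call with no filter (adjusted p 0.134), so that 0 of the 10 genes were called higher with no filter, under median-of-ratios scaling and with the replicate block. With single libraries left out, 0 to 1 were called higher and 0 to 1 lower.

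Over all genes, 564 were called higher and 170 lower. The higher count was 88 with no filter (58 lower), 990 under TPM, 352 under median-of-ratios scaling and 371 under quantile normalization, and with single libraries left out it was 100 to 428 higher and 55 to 121 lower. Higher calls made up 76.8% of calls, against 85.2% under TPM, 60.9% under median-of-ratios scaling and 64.5% under quantile normalization, and TPM moved the median log2 fold change of all genes from 0.075 to 0.131. In the 5 lists, 7 higher calls became 0 with no filter and 3 under median-of-ratios scaling, quantile normalization or the replicate block, and 1 to 7 with single libraries left out. The 2 lower calls became 1 under a pseudocount of 0.1, no filter, quantile normalization, median-of-ratios scaling, array weights, or eBayes that was robust or had no trend, and 0 to 2 with single libraries left out.

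Same-numbered libraries did not deviate together (correlations of 0.17, -0.0625 and 0.0966), so the numbers are not taken to pair libraries. The replicate block gave 280 higher calls over all genes and an adjusted p of 0.0757 for Fth1. Depth limits mainly Hamp2 and Mt2, with as few as 25 and 26 reads in a library.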

Other observations

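Among proteins that capture hemoglobin, heme or siderophore-bound iron, WT3 stood apart from the other wild-type libraries. These 3 genes were chosen after their values were seen. Lcn2, which binds siderophores, was at 178, 153 and 236 FPKM in KO1 to KO3 and at 216, 189 and 33.0 FPKM in WT1 to WT3. Hp, which binds free hemoglobin, was at 4864, 3874 and 4736 FPKM in knockout and at 7224, 7708 and 3544 FPKM in wild-type libraries. Hpx, which binds free heme, was at 4197, 3697 and 4852 FPKM in knockout and at 5641, 6163 and 3480 FPKM in wild-type libraries. In each, WT3 was below all 3 knockout libraries and both other wild-type libraries, and none of the 3 was called.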
